A study of Homo sapiens with 12 samples.

Results

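The insulin-like growth factor (IGF) axis was followed through 10 genes: the binding protein genes IGFBP2, IGFBP3, IGFBP4, IGFBP5 and IGFBP6, the receptor genes IGF1R, IGF2R and INSR, and the docking protein genes IRS1 and IRS2. The choice was made with earlier results of these data known, so counts of called genes among them are a description. All 10 were among the 56832 gene names in the count files, and 9 of them passed the filter on low counts, which left 14549 genes for testing. IGFBP6 did not pass. Each of the 9 had at least 48 counts in every library, so none passed through 1 group alone. RNA came from MDA-MB-468, a human breast cancer line of basal-like type that had been made to carry pCDH-TRB, a vector for thyroid hormone receptor beta (TRB cells), or pCDH-EV, the empty vector (EV cells). All cells, controls included, were kept for 24 hours in medium stripped of hormone and then were treated for 24 hours with 10 nM of T3, a thyroid hormone, or with vehicle (NaOH). The 4 combinations, EV vehicle, EV T3, TRB vehicle and TRB T3, had 3 libraries each, 12 in all. Each vector is represented by 1 stable line, so every TRB to EV difference is one between those lines. Separate cultures are not named for the 3 libraries of a group, so the p-values measure only how much these libraries varied, a spread that may be technical.

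IGF1 and IGF2 are peptide growth factors that act through IGF1R, a receptor tyrosine kinase closely related to the insulin receptor encoded by INSR. Activated receptors phosphorylate the docking proteins IRS1 and IRS2, which recruit phosphoinositide 3-kinase and so start AKT signalling. IGF2R, the cation-independent mannose 6-phosphate receptor, carries no kinase: it takes up IGF2 for degradation and sorts lysosomal enzymes. The secreted binding proteins hold IGFs outside the cell and either keep them from the receptors or release them when proteases cut the binding protein. In breast epithelium and breast cancer this axis is known for its part in growth and survival.

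Gene totals ran from 4241863 to 8904361 counts in vehicle libraries and from 10323437 to 11955825 in T3 libraries and the 2 ranges did not meet. The mitochondrial ribosomal RNA genes MT-RNR1 and MT-RNR2 took 0.3259% to 2.679% of the counts in vehicle libraries and 0.0502% to 0.08995% in T3 libraries, and any difference in handling between T3 and vehicle libraries cannot be told apart from T3 in the results below. THRB stood at 43.6, 42.6 and 44.2 CPM (counts scaled to library size, with TMM factors) in EV vehicle libraries, 39.9, 37.8 and 37.7 with T3, 144, 136 and 141 in TRB vehicle libraries and 311, 344 and 331 in TRB T3 libraries. KLF9, a transcription factor gene that T3 induces, rose in both lines (log2 fold change 3.45 ± 0.15 (SE) in TRB cells and 2.13 ± 0.18 in EV cells), and was taken as the check of a T3 response. All 7 basal epithelial markers were measured, at a summed 4818 to 7707 CPM, and the progesterone receptor gene PGR was at 0 in all libraries. Summed basal markers lay at 7393 to 7707 CPM in EV vehicle, 6866 to 7432 in EV T3, 5962 to 5997 in TRB vehicle and 4818 to 4991 in TRB T3 libraries, a sum carried mostly by EGFR. With T3 in TRB cells 5 of the 7 fell, where 21.9% of all genes did, and 1 rose, where 22.4% of all genes did. Their median log2 fold change was -1.31. The basal keratin genes KRT5, KRT17 and KRT14 had log2 fold changes of -2.01, -1.61 and -1.31. In the rest of the list KRT6B had -1.92 and TRIM29 -0.13, CDH3 rose by 0.41, and EGFR, at -0.05, was not called. The part of these changes in the results below was not tested. In bulk RNA, fewer cells of a type and less RNA per cell cannot be told apart. Luminal and hormone receptor markers summed to 2498 to 2986 CPM, a sum carried mostly by KRT8 and KRT18. With T3 in TRB cells 2 of the 6 tested rose, where 22.4% of all genes did, and 2 fell, where 21.9% of all genes did. Log2 fold changes were 0.55 for ESR1, 0.47 for ERBB2, -0.93 for GATA3 and -0.27 for FOXA1. KRT8, at -0.01, and KRT18, at -0.08, were not called. Leukocyte markers summed to 18 to 53 CPM in 3 of the groups and 182 to 194 CPM in TRB T3 libraries, of which CD14 made up 186 ± 6.47 CPM (SD, n = 3). Endothelial markers summed to 3.91 to 6.82 CPM, thyroid follicular markers to at most 1.57 and fibroblast markers to 14.6 to 21.4. Within the endothelial sum CDH5 went from 0.427 ± 0.225 CPM in TRB vehicle to 3.68 ± 0.311 in TRB T3 libraries. KDR went from 2.36 ± 0.203 to 0.347 ± 0.223. The follicular marker SLC5A5, named after its values were seen, had 1 count over TRB vehicle and 38 over TRB T3 libraries. These low values are given as a description. The fibroblast markers COL1A2, DCN and LUM and the B cell marker MS4A1 were at 0 in all libraries.

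The promoters of 6 of the genes on which the results turn are shown: IGFBP2 and IGFBP5, which are neighbours on chromosome 2, IGFBP3 and IGFBP4, the most abundant binding protein genes per length, and IRS1 and IRS2, whose changes under T3 had opposite signs. Each sequence runs from 250 to 11 bases before the first listed start in RefSeq (GRCh38.p14), 240 bases, read 5′ to 3′ on the gene's strand. All 10 genes were matched to the RefSeq promoters by symbol. Capitals mark, on either strand, the receptor half-site AGGTCA, the GC box GGGCGG, the TATA box TATAAA and the TEAD motif GGAATG. A run of more than 6 capitals holds overlapping GC boxes.
IGFBP2 (chr2:216632578-216632817, plus strand): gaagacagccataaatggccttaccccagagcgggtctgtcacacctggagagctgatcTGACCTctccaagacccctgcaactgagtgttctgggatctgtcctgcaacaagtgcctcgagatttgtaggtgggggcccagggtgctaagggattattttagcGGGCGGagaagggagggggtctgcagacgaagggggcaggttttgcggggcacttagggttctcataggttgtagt
IGFBP5 (chr2:216695560-216695799, minus strand): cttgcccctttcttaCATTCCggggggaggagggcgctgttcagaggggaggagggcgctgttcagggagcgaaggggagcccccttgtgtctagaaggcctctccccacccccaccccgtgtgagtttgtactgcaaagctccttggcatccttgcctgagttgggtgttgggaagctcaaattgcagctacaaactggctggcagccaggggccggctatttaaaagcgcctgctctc
IGFBP3 (chr7:45921283-45921522, minus strand): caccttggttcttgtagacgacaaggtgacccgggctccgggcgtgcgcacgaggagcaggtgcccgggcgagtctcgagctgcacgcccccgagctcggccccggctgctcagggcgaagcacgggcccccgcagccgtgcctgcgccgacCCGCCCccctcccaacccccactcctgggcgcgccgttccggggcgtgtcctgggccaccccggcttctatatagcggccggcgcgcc
IGFBP4 (chr17:40443200-40443439, plus strand): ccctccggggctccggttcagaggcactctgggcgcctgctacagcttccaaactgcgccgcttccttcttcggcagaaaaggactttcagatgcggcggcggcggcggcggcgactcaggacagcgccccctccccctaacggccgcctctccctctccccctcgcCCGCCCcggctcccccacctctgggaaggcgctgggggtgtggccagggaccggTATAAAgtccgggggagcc
IRS1 (chr2:226799831-226800070, minus strand): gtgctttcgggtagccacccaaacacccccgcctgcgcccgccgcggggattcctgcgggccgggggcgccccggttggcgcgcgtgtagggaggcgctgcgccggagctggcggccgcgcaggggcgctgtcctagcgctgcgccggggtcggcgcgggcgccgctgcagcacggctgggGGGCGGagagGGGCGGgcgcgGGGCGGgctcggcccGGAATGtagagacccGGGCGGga
IRS2 (chr13:109786594-109786833, minus strand): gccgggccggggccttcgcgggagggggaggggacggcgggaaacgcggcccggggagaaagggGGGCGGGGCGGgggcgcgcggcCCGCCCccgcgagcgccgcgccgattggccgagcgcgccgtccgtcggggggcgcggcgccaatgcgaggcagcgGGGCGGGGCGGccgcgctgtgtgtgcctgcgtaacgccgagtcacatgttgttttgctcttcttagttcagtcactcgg

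Thyroid hormone receptors bind DNA at half-sites, classically as direct repeats with 4 bases between them. The half-site AGGTCA was found in 11.7% of 35116 RefSeq promoter windows of the same length and in 1 of the 10 genes, IGFBP2, at bases -191 to -186 on the reverse strand. The repeat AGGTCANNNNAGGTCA was found in 0.0142% of all windows and in none of the 10. GC boxes, to which Sp1-type factors bind, occurred in 9 of the 10 genes, all but IGFBP5, against 41.4% of all windows. The window of IGFBP6 overlaps annotated exons, so it is not wholly upstream sequence. For the 10 genes 2 further starts were left out, whereas the set of all windows was not reduced to 1 start per gene. GC content was 75% for IGFBP3, 70.8% for IGFBP4, 80.4% for IRS1, 77.1% for IRS2, 56.2% for IGFBP2 and 60% for IGFBP5, beside a median of 57.9% over all windows. IGFBP4 was the 1 gene of the 10 with the letters TATAAA (10.6% of all windows). The TEAD motif GGAATG occurred in IGFBP5, IGFBP6 and IRS1 (11.5% of all windows). These are matches of letters in short windows and show no binding.

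In TRB cells the question was which of these genes responded to T3. The binding protein genes IGFBP2, IGFBP3, IGFBP4 and IGFBP5 fell, by 1.54-fold to 3.95-fold. Among receptors INSR fell and IGF2R rose, while IGF1R had a log2 fold change of 0.01 ± 0.06 (SE; 95% interval -0.11 to 0.13; edgeR adjusted p = 0.885). Of the docking proteins IRS2 fell and IRS1 rose. In all, 8 of the 9 tested genes passed edgeR's quasi-likelihood test at a Benjamini-Hochberg adjusted p below 0.05, beside 44.4% of all genes tested. Of these, 6 fell, where 21.9% of all genes did, and 2 rose, where 22.4% of all genes did. The median log2 fold change was -0.62 over the 9 genes and -0.002 over all genes.

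In EV cells, which have only the cell's own receptors, T3 lowered IGFBP3 and IRS2, 2 of the 9 tested genes, beside 4.54% of all genes (1.7% lower and 2.84% higher). Over all genes 660 were called in EV cells, but 275 when EV vehicle replicate 3 was left out (IGFBP3 alone of the 9 was then called), 341 without EV T3 replicate 2, and 396 when EV vehicle replicate 1 was left out. The median of the 9 was 0.02, against -0.001 over all genes. The T3 effect itself differed between the lines for 8 of the 9 genes by the interaction term of the same fit, beside 23.9% of all genes. It was more negative in TRB cells for 6 genes (11.6% of all genes) and more positive for IGF2R and IRS1 (12.3% of all genes). These comparisons share libraries, so their values are given side by side and their overlap is not read as a result.

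**Figure D1:**
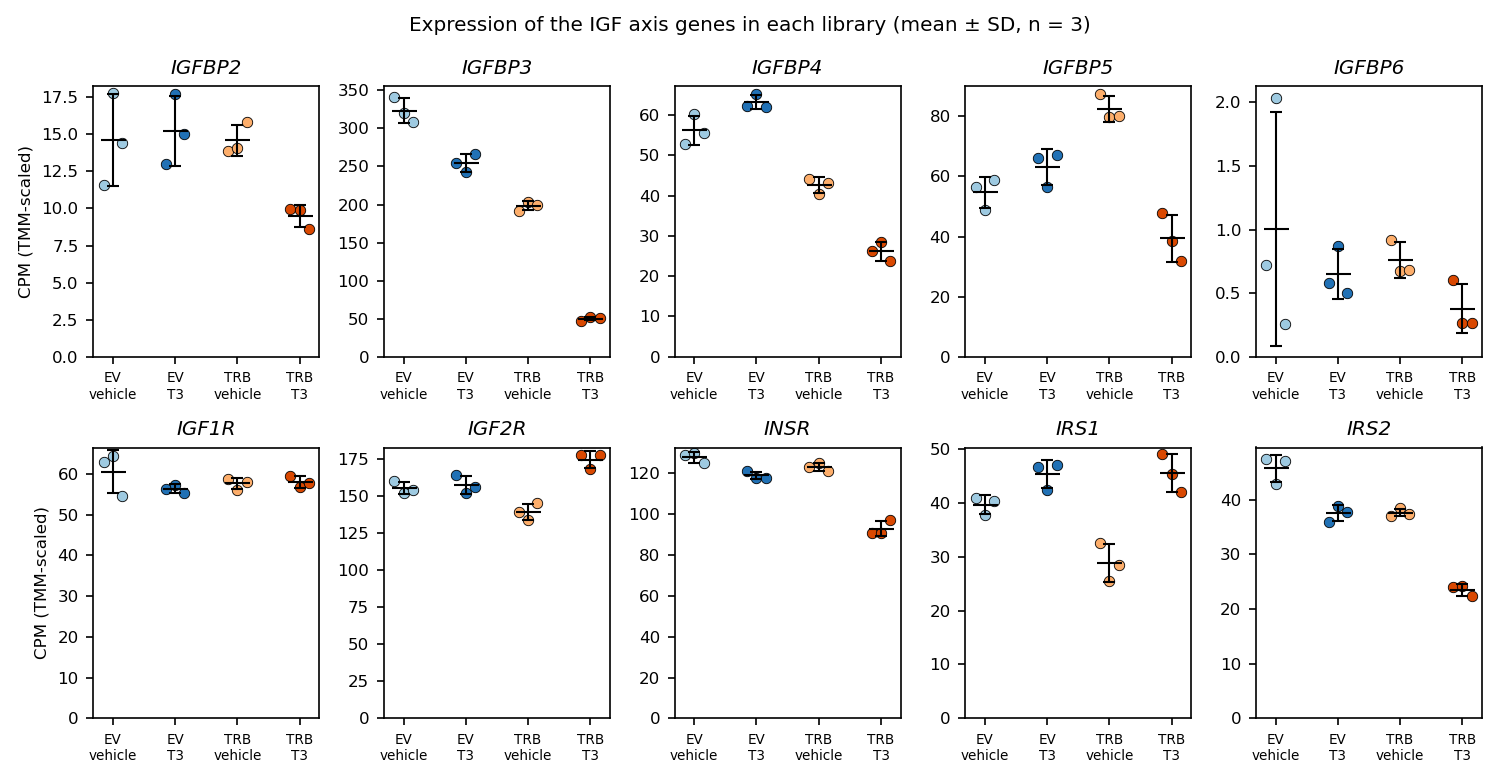
Level of each of the 10 genes (vertical axis, CPM scaled by TMM factors, from 0) in each of the 12 libraries, by vector and treatment (horizontal axis); points are libraries, and bars are the mean ± SD of 3. IGFBP3 descends through the 4 groups without overlap, IRS1 is lowest in TRB vehicle libraries, and the 4 groups of IGF1R overlap.

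Among the binding proteins, IGFBP3 (chromosome 7, 45912245 to 45921874, minus strand; GRCh38, GENCODE 29, as for all genes below) encodes the main carrier of IGFs in blood. It stood at 341, 320 and 309 CPM in EV vehicle libraries, 254, 243 and 266 in EV T3, 192, 203 and 200 in TRB vehicle and 47.6, 52.2 and 50.8 in TRB T3. The groups thus fell in the order EV vehicle, EV T3, TRB vehicle, TRB T3, and no neighbours in that order overlapped. T3 lowered it 3.95-fold in TRB cells (log2 fold change -1.98 ± 0.05 (SE), edgeR adjusted p = 2.41e-45) and 1.27-fold in EV cells (-0.34 ± 0.04, adjusted p = 2.95e-09). The 2 effects differed by -1.64 ± 0.06 (95% interval -1.77 to -1.51, edgeR adjusted p = 1e-32). TRB cells were also below EV cells without T3, by 1.63-fold (adjusted p = 1.04e-21), and with T3, by 5.07-fold (adjusted p = 5.94e-51).

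IGFBP4 (chromosome 17, 40443461 to 40457731, plus strand) encodes a binding protein that inhibits IGF action until the protease pappalysin cuts it. Its levels were 52.9, 60.1 and 55.5 CPM in EV vehicle libraries, 62.3, 65.1 and 61.9 in EV T3, 44.2, 40.5 and 43.2 in TRB vehicle and 26.3, 28.4 and 23.8 in TRB T3. TRB T3 was lowest and EV T3 highest, with no overlap between any neighbouring groups. T3 lowered it 1.63-fold in TRB cells (-0.70 ± 0.07, edgeR adjusted p = 5.39e-13). In EV cells the log2 fold change was 0.16 ± 0.06 and missed the threshold (adjusted p = 0.155; 95% interval 0.03 to 0.29, unadjusted). The difference between the effects was -0.86 ± 0.10 (edgeR adjusted p = 2.52e-11). TRB cells were lower than EV cells without T3 by 1.33-fold (adjusted p = 1.07e-05) and with T3 by 2.41-fold (adjusted p = 1.29e-27).

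IGFBP5 (chromosome 2, 216672105 to 216695525, minus strand), the binding protein gene known from mammary involution, was ordered differently. It stood at 56.6, 48.8 and 58.7 CPM in EV vehicle libraries, 66, 56.4 and 67.1 in EV T3, 87.3, 79.7 and 80.1 in TRB vehicle and 47.7, 38.4 and 32 in TRB T3. TRB vehicle was the highest group and TRB T3 the lowest, and the 2 EV groups between them overlapped. T3 lowered it 2.09-fold in TRB cells (-1.06 ± 0.14, edgeR adjusted p = 0.000149), against a log2 fold change of 0.21 ± 0.14 in EV cells (adjusted p = 0.559). The effects differed by -1.27 ± 0.20 (adjusted p = 0.00121). Without T3 it was 1.5-fold higher in TRB cells (0.59 ± 0.14, edgeR adjusted p = 0.0249), a call that was lost when any 1 of the 6 vehicle libraries was left out (adjusted p from 0.0511 to 0.0854). With T3 it was 1.60-fold lower (-0.68 ± 0.13, adjusted p = 0.00285).

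IGFBP2 (chromosome 2, 216632828 to 216664436, plus strand), the gene of a binding protein common in many tumours, was the lowest of the tested binding protein genes. It stood at 11.6, 17.8 and 14.4 CPM in EV vehicle libraries, 13, 17.7 and 15 in EV T3, 13.9, 14.1 and 15.8 in TRB vehicle and 9.94, 9.88 and 8.64 in TRB T3. The first 3 groups overlapped, and TRB T3 lay below all of them. T3 lowered it 1.54-fold in TRB cells (-0.62 ± 0.13, edgeR adjusted p = 3.2e-05), and the log2 fold change in EV cells was 0.04 ± 0.12 (adjusted p = 0.934). The effects differed by -0.66 ± 0.17 (edgeR adjusted p = 0.00288). TRB and EV cells differed by -0.03 ± 0.13 without T3 (adjusted p = 0.915) and by -0.69 ± 0.12 with it (adjusted p = 1.1e-06).

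IGFBP6 (chromosome 12, 53097436 to 53102345, plus strand) encodes a binding protein that prefers IGF2. It had 3, 13 and 2 counts in EV vehicle libraries, 6, 10 and 6 in EV T3, 7, 6 and 5 in TRB vehicle and 7, 3 and 3 in TRB T3. The groups overlapped, and a difference was not detectable at this depth: with no filter on low counts the edgeR adjusted p ran from 0.275 for T3 in TRB cells to 1 for the interaction.

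Levels per kb took the length of all annotated exons of a gene, which can be longer than the transcripts expressed. Orders and shares of genes on this scale, here and below, depend on that length. On it the 5 binding protein genes summed to 109 ± 3.03 CPM per kb in EV vehicle libraries and 97.8 ± 2.25 in EV T3. They summed to 79.1 ± 0.507 in TRB vehicle and 31.3 ± 2.04 in TRB T3 libraries (SD, n = 3). These 4 groups did not overlap. IGFBP3 made up 65.1% ± 2.15 of that sum in EV vehicle libraries, 56.9% ± 1.28 in EV T3, 54.8% ± 1.69 in TRB vehicle and 35.3% ± 3.1 in TRB T3. IGFBP4 made up 23.5% ± 1.56, 29.3% ± 1.39, 24.5% ± 0.955 and 38% ± 1.4 in the same order, and IGFBP5 7.83% ± 0.903, 10% ± 0.779, 16.2% ± 0.819 and 19.5% ± 3.05. IGFBP3 was thus the leading binding protein transcript per length in 3 of the groups, whereas in TRB T3 libraries IGFBP4 (11.9 ± 1.03 CPM per kb) and IGFBP3 (11 ± 0.509) lay within their spread. These shares carry no test of their own, and a share rises when another member falls.

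**Figure D2:**
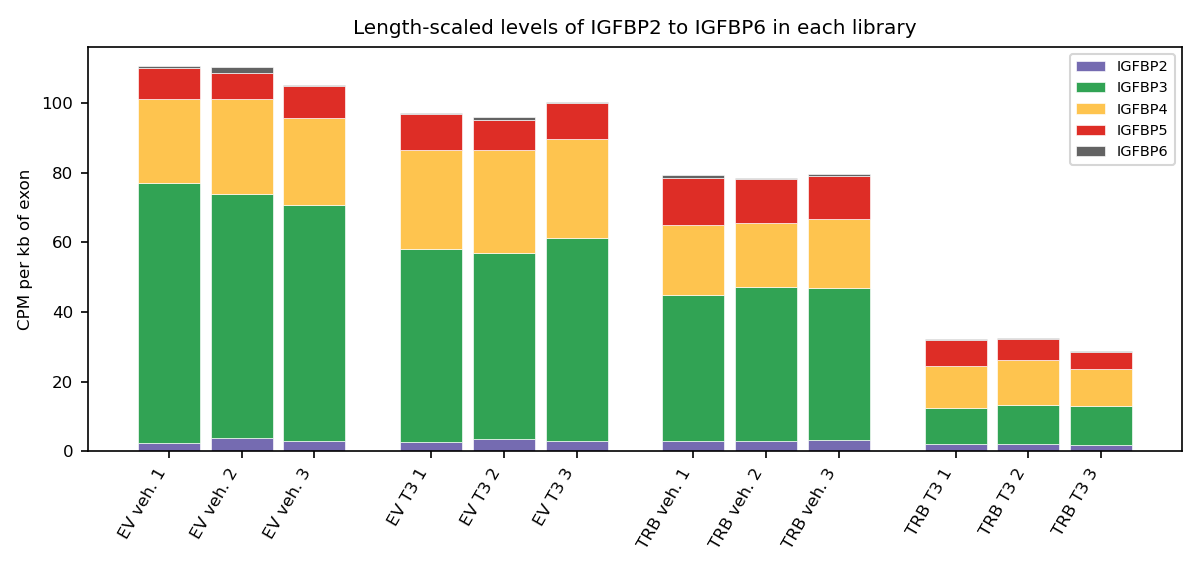
Stacked levels of the 5 binding protein genes (vertical axis, CPM per kb of exon, from 0) in each of the 12 libraries (horizontal axis). The stack is about 109 in EV vehicle libraries and 31.3 in TRB T3 libraries, and most of the drop is in the IGFBP3 segment.

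Among the receptors, IGF1R (chromosome 15, 98648539 to 98964530, plus strand) stood at 63, 64.3 and 54.5 CPM in EV vehicle libraries, 56.4, 57.4 and 55.2 in EV T3, 58.8, 56.1 and 58.1 in TRB vehicle and 59.6, 56.8 and 57.7 in TRB T3. All neighbouring groups overlapped. No comparison passed the test, with edgeR adjusted p values from 0.428 for the interaction to 0.885 for T3 in TRB cells. The 95% interval of the T3 effect ran from -0.11 to 0.13 in TRB cells and from -0.22 to 0.03 in EV cells on the log2 scale, which bounds the change but does not show that there was none.

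INSR (chromosome 19, 7112255 to 7294034, minus strand) stood at 129, 130 and 125 CPM in EV vehicle libraries, 121, 118 and 118 in EV T3, 123, 125 and 121 in TRB vehicle and 90.8, 90.6 and 97.1 in TRB T3. TRB T3 lay below every other library. T3 lowered it 1.33-fold in TRB cells (-0.41 ± 0.05, edgeR adjusted p = 8.83e-12), and the log2 fold change in EV cells was -0.11 ± 0.05 (adjusted p = 0.214). The effects differed by -0.30 ± 0.07 (edgeR adjusted p = 0.000198). TRB and EV cells differed by -0.05 ± 0.05 without T3 (adjusted p = 0.548), and TRB cells were 1.28-fold lower with it (adjusted p = 3.02e-10).

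IGF2R (chromosome 6, 159969099 to 160113507, plus strand) moved the other way. It stood at 160, 152 and 154 CPM in EV vehicle libraries, 164, 152 and 156 in EV T3, 139, 134 and 145 in TRB vehicle and 178, 168 and 178 in TRB T3. TRB vehicle was the lowest group and TRB T3 the highest, with the overlapping EV groups between them. T3 raised it 1.26-fold in TRB cells (0.33 ± 0.04, edgeR adjusted p = 1.68e-09), and the log2 fold change in EV cells was 0.02 ± 0.05 (adjusted p = 0.873). The effects differed by 0.31 ± 0.06 (edgeR adjusted p = 8.57e-05). Against EV cells it was 1.11-fold lower without T3 (adjusted p = 0.018) and 1.11-fold higher with T3 (adjusted p = 0.00169). Both small differences lost the call when libraries were thinned to equal depth (edgeR adjusted p = 0.256 and 0.101). The first was also lost without EV vehicle replicate 1 (0.0866) or TRB vehicle replicate 2 (0.113).

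Per length, INSR was the most abundant of the 3 receptor genes in EV vehicle libraries, at 12.3 ± 0.237 CPM per kb, followed by IGF2R at 8.71 ± 0.235 and IGF1R at 4.35 ± 0.382 (SD, n = 3). In TRB T3 libraries IGF2R led with 9.8 ± 0.319, ahead of INSR at 8.88 ± 0.351 and IGF1R at 4.16 ± 0.103. The level of INSR relative to IGF1R was 2.83 ± 0.204 in EV vehicle, 2.81 ± 0.0654 in EV T3, 2.85 ± 0.107 in TRB vehicle and 2.13 ± 0.106 in TRB T3 libraries. Its TRB T3 values, 2.03 to 2.24, lay below all others.

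The docking protein genes moved in opposite directions under T3. IRS1 (chromosome 2, 226731317 to 226799759, minus strand) stood at 40.9, 37.7 and 40.4 CPM in EV vehicle libraries, 46.6, 42.4 and 47.1 in EV T3, 32.6, 25.5 and 28.4 in TRB vehicle and 49.1, 45.4 and 42.1 in TRB T3. TRB vehicle was the lowest group, and the 2 T3 groups overlapped at the top. T3 raised it 1.59-fold in TRB cells (0.67 ± 0.08, edgeR adjusted p = 1.34e-11), and the log2 fold change in EV cells was 0.20 ± 0.08 (adjusted p = 0.143). The effects differed by 0.47 ± 0.11 (edgeR adjusted p = 0.000477). TRB cells were 1.38-fold lower without T3 (adjusted p = 4.12e-05), and with T3 the log2 difference was 0.01 ± 0.06 (95% interval -0.12 to 0.14, adjusted p = 0.946).

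IRS2 (chromosome 13, 109752698 to 109786568, minus strand), the docking protein gene known for its part in insulin action in liver, stood at 47.4, 42.9 and 47 CPM in EV vehicle libraries, 36, 38.8 and 37.8 in EV T3, 37.1, 38.4 and 37.4 in TRB vehicle and 24.1, 24.2 and 22.3 in TRB T3. EV vehicle was highest, TRB T3 lowest, and the 2 groups between them overlapped. T3 lowered it 1.60-fold in TRB cells (-0.68 ± 0.07, edgeR adjusted p = 4.11e-12) and 1.22-fold in EV cells (-0.28 ± 0.07, adjusted p = 0.0082). The effects differed by -0.40 ± 0.10 (edgeR adjusted p = 0.00199), a call that was lost with libraries thinned to equal depth (adjusted p = 0.149). TRB cells were 1.21-fold lower without T3 (adjusted p = 0.00503) and 1.60-fold lower with it (adjusted p = 6.13e-13). Without EV vehicle replicate 3 the EV response and the difference without T3 missed the threshold (edgeR adjusted p = 0.122 and 0.0511).

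Per length, IRS1 relative to IRS2 was 0.709 ± 0.0089 in EV vehicle libraries, 0.99 ± 0.0866 in EV T3, 0.628 ± 0.088 in TRB vehicle and 1.58 ± 0.0742 in TRB T3 (SD, n = 3). IRS2 was the higher of the pair in all 6 vehicle libraries, where the ratio ran from 0.544 to 0.719. IRS1 was the higher in all 3 TRB T3 libraries, where it ran from 1.54 to 1.67.

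**Figure D3:**
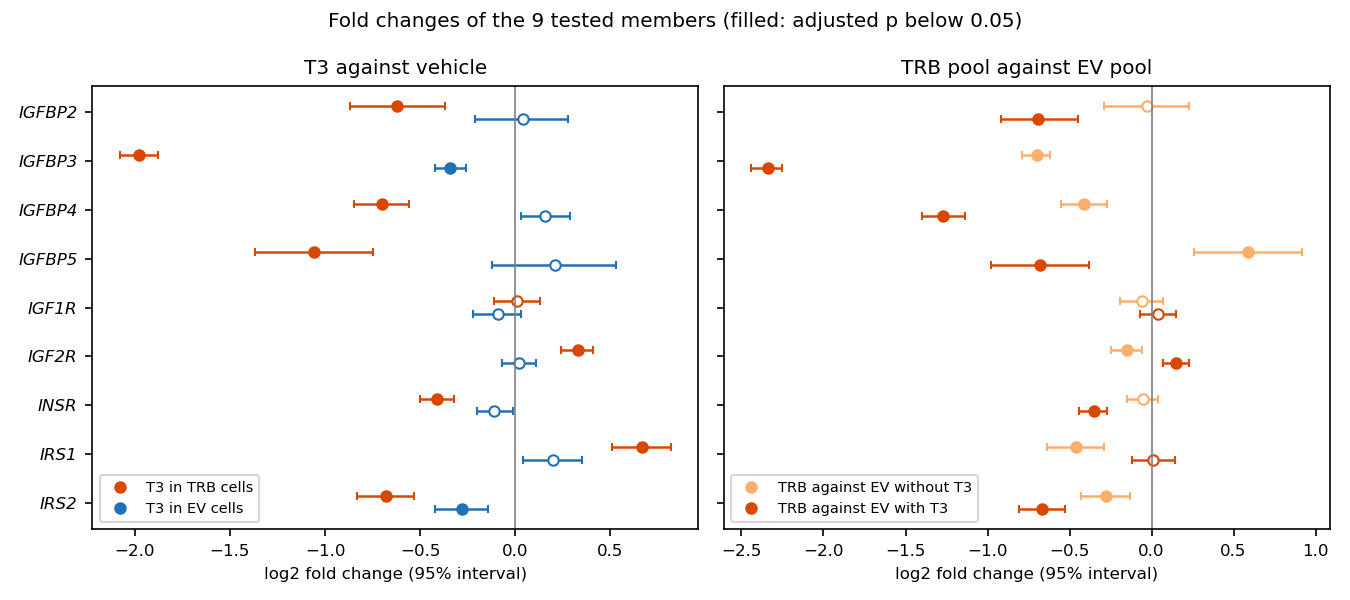
Log2 fold changes of the 9 tested genes (horizontal axis) with 95% intervals as bars; left, T3 against vehicle in TRB and EV cells, and right, TRB against EV cells without and with T3. Filled points passed an edgeR adjusted p below 0.05; IGFBP3 with T3 is the point farthest to the left in both panels, and IGF1R is open throughout.

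The comparison of the lines asked how the TRB line differed from the EV line with and without T3. Without T3, 6 of the 9 genes differed between TRB and EV cells, beside 15.3% of all genes. IGFBP5 was higher in TRB cells (7.86% of all genes were), and IGFBP3, IGFBP4, IGF2R, IRS1 and IRS2 were lower (7.4% of all genes were). The median log2 difference was -0.15 over the 9 genes. With T3, 7 of the 9 differed, beside 40.7% of all genes. IGF2R was higher (21% of all genes were), and IGFBP2, IGFBP3, IGFBP4, IGFBP5, INSR and IRS2 were lower (19.7% of all genes were), with a median of -0.67 over the 9. IGFBP5 and IGF2R were called in both states with opposite signs, but not under every alternative. The IGFBP5 call without T3 was lost when any single vehicle library was left out. Both IGF2R calls were lost when libraries were thinned to equal depth. With a library left out, 4 or 5 of the 9 were called without T3.

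Across the 12 libraries, the log2 CPM of IGFBP3 followed those of IRS2 (Pearson r = 0.97), INSR (0.96) and IGFBP4 (0.94), as a description of 4 groups that share vector, treatment and depth. IGFBP5 and IGF2R ran against each other (r = -0.82), and IGF1R had an r between -0.18 and 0.16 with every other tested member. Of 13994 other genes with a mean of at least 1 CPM, those most like IGFBP3 were AK5, an adenylate kinase gene (r = 0.995), DUSP5, an ERK phosphatase gene (0.994), and TRIB3, a pseudokinase gene (0.994). Those most like IGFBP4 were SQSTM1, the gene of an autophagy receptor (0.989), the keratin gene KRT16 (0.985) and the collagen gene COL5A2 (0.984). INSR was most like FGFBP1, SLC4A4 and AHNAK (each 0.988), and IGF2R most like AC116366.4 (0.966), ERAP1, a peptide-trimming aminopeptidase gene (0.960), and SPEN, a corepressor gene (0.960).

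On the genome, IGFBP2 and IGFBP5 lie 7.7 kb apart, tail to tail, and both fell with T3 in TRB cells. Without T3 their TRB to EV differences were -0.03 (edgeR adjusted p = 0.915) and 0.59 (adjusted p = 0.0249). RPL37A, a ribosomal protein gene and the next tested gene on the other side of IGFBP2, had a log2 fold change of -0.04 with T3 in TRB cells (adjusted p = 0.398). IGFBP4 lies 18096 bases from TNS4, a tensin gene, which rose by 3.04 in TRB cells and 1.05 in EV cells on the log2 scale (edgeR adjusted p = 3.59e-49 and 1.6e-15), opposite to IGFBP4 in TRB cells. On its other side TOP2A, the topoisomerase gene of dividing cells, had a log2 fold change of -0.38 in TRB cells (adjusted p = 5.66e-14). IGFBP1, 18.6 kb from IGFBP3 on chromosome 7, had 0 counts in all 12 libraries. Counting may not have used strand. The antisense genes AC007563.2 at IGFBP5 and AIRN at IGF2R had 0 counts, which does not show whether reads in the overlaps were left uncounted.

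Other genes of the pathway were taken from lists. Of the ligands, IGF2 and INS had 0 counts in every library. The name IGF2 had no single match in the gene annotation, and genes overlapping the ligand genes were not examined. Reads shared with another gene may not have been counted, so 0 counts do not show that a ligand was absent. IGF1 had 5 counts over the EV vehicle libraries, 9 over EV T3, 2 over TRB vehicle and 3 over TRB T3, too few to test. Of the other binding and carrier proteins, IGFBP7, a secreted protein of low IGF affinity, had 0 counts in both vehicle groups, 3 over the EV T3 libraries and 51 over the TRB T3 libraries (1.49 ± 0.329 CPM), so that it passed the filter on low counts through TRB T3 alone, the group where it is high; its values are given as a description. IGFBPL1 stood at 4.65 ± 1.62 CPM in TRB vehicle and 3.53 ± 0.275 in TRB T3 libraries and did not pass (adjusted p = 0.101). IGFALS, the acid-labile subunit gene, was not tested.

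Of 7 tested proteases that cut the binding proteins and inhibitors of these proteases, 5 rose and 2 fell with T3 in TRB cells, beside 22.4% and 21.9% of all genes, with a median log2 fold change of 0.82. The count includes ADAM28 (0.463 ± 0.286, 0.683 ± 0.223, 0.434 ± 0.407 and 2.81 ± 0.417 CPM in EV vehicle, EV T3, TRB vehicle and TRB T3), named after its values were seen, which passed the filter through TRB T3 alone and so had to differ. The count also holds HTRA1, at 1.37 ± 0.249, 0.835 ± 0.295, 1.3 ± 0.0678 and 0.35 ± 0.0837 CPM in the same order. HTRA1, also named after its values were seen, passed the filter through the vehicle libraries, where it is high. Its fall is given as a description. PAPPA, the gene of pappalysin, which cuts IGFBP4 and IGFBP5, went from 0.952 ± 0.483 to 4.88 ± 1.51 CPM with T3 (2.32 ± 0.29 (SE), edgeR adjusted p = 3.31e-10). STC1, a stanniocalcin gene whose protein inhibits pappalysin, went from 12.2 ± 0.848 to 104 ± 11.3 CPM (3.09 ± 0.08, adjusted p = 3.31e-41). STC2, the other stanniocalcin gene, went from 9.32 ± 0.597 to 16.5 ± 1.7 CPM (0.82 ± 0.11, adjusted p = 7.34e-09). The protease gene and its inhibitor genes thus rose together. In EV cells 1 of the 7 rose, STC1 by 0.94 ± 0.10 (adjusted p = 5e-11), and the T3 effects on STC1, PAPPA and STC2 differed between the lines by 2.14, 2.17 and 0.71 (edgeR adjusted p = 7.03e-20, 2.06e-05 and 7.85e-05). Without T3, PAPPA, STC1 and STC2 were lower in TRB than in EV cells, with log2 differences of -1.65, -0.51 and -1.5.

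Of 8 tested genes for receptor processing and mannose 6-phosphate sorting, 3 rose and 1 fell in TRB cells, a share near the 44.4% of all genes called. FURIN, the protease gene whose product cleaves the IGF1R and insulin receptor precursors, went from 30 ± 1.94 to 168 ± 5.93 CPM (2.48 ± 0.06, edgeR adjusted p = 2.41e-47), against a log2 fold change of 0.13 in EV cells (adjusted p = 0.427). GGA1, a sorting adaptor gene, rose by 0.64 in TRB cells and 0.19 in EV cells (edgeR adjusted p = 1.43e-17 and 0.0331), and M6PR, the cation-dependent mannose 6-phosphate receptor gene, rose by 0.21 in TRB cells (adjusted p = 0.00217).

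Of 10 tested receptor adaptors, 3 rose and 3 fell in TRB cells, where 44.4% of all genes were called, and none passed in EV cells, where 4.54% of all genes did. SH2B2, an adaptor gene of the insulin receptor, rose by 1.06 ± 0.10 and DOK4 by 0.38 ± 0.09, and GAB1 fell by 0.35 on the log2 scale. Of 12 genes that act as brakes on the receptors and IRS proteins, 4 rose and 3 fell, beside 22.4% and 21.9% of all genes: PTPRF, a receptor phosphatase gene, rose by 0.46 ± 0.04, while SOCS3, a suppressor of cytokine signalling gene, had a log2 fold change of -0.91 ± 0.13 and TRIB3, an inhibitor of AKT, one of -0.55 ± 0.04. The medians of both lists, -0.02 and 0.04, were near that of all genes.

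Downstream, 1 of 13 tested PI3K, AKT and FOXO genes rose and 5 fell in TRB cells, a share near the 44.4% of all genes called. PIK3R1, the regulatory subunit gene of the kinase that IRS proteins recruit, stood at 184 ± 4.84 CPM in EV vehicle, 155 ± 9.63 in EV T3, 227 ± 7.42 in TRB vehicle and 104 ± 0.824 in TRB T3 libraries (SD, n = 3). T3 lowered it in both lines, with log2 fold changes of -1.13 ± 0.04 and -0.25 ± 0.04 (edgeR adjusted p = 5.52e-34 and 9e-05). PIK3R3, another regulatory subunit gene, had a log2 fold change of -0.39 ± 0.04 in TRB cells (edgeR adjusted p = 4.9e-13). Of the IGF2 mRNA binding proteins, IGF2BP3 fell in TRB cells (-0.39 ± 0.07, adjusted p = 3.98e-06), IGF2BP2 had a log2 fold change of -0.18 (adjusted p = 0.0552) and IGF2BP1 was not tested.

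**Figure D4:**
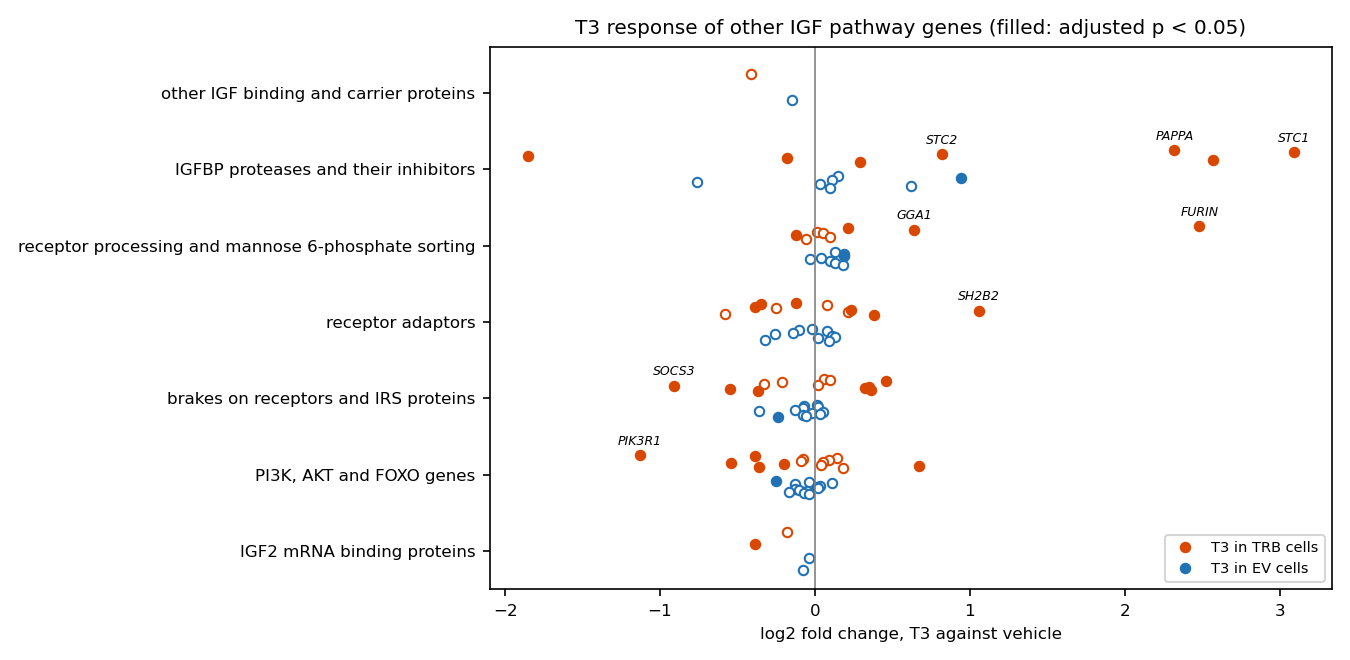
Log2 fold change of T3 against vehicle (horizontal axis) for the tested genes of 7 pathway lists (vertical axis) in TRB and EV cells; 1 point is 1 gene, filled where the edgeR adjusted p was below 0.05. STC1 (3.09), FURIN (2.48) and PAPPA (2.32) lie to the right in TRB cells and PIK3R1 (-1.13) to the left. The unlabelled points beyond 1.5 are ADAM28 (2.57) and HTRA1 (-1.85), named after their values were seen. ADAM28 passed the filter through TRB T3 libraries alone and HTRA1 through the vehicle libraries. IGFBP7 is left out because both vehicle groups had 0 counts.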

How the data were processed

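RNA sequencing libraries (NEBNext Ultra II kit, per the labels' protocols) were processed with CASAVA 1.7, STAR 2.7, HTSeq 0.10 and DESeq2 on hg38, per the submitters' processing notes. Use of strand in counting was not given in the sources used here. The authors deposited raw counts per gene and library. Their deposited normalized table, treated as a score, lay within 1 of the counts after division by a factor for each library and was used only as a check. Lines naming no gene (31.87% to 39.24%) were left out. The members and lists were chosen with earlier results of these data known.

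Counts were tested in R 4.3.3 by edgeR 4.0.16 (limma 3.58.1): filterByExpr (10 counts, 15 in total), TMM, 1 robust quasi-likelihood fit of 4 group means (8 residual degrees of freedom), Benjamini-Hochberg adjustment over 14549 genes. Standard errors were the size of log2 fold changes divided by the root of F. Steps were tested on simulated counts. CPM use TMM factors and lengths GENCODE 29 exons; 53.7% of all gene names and all 10 members matched. Named genes were the members, THRB, KLF9, the 3 genes of each list with the smallest p for T3 in TRB cells, every tested gene of short lists, the 3 genes of highest Pearson r for 4 members, and tested neighbours within 200 kb. A gene that this rule takes is not reported here. Alternatives were RLE, DESeq2 1.42.0, no filter, CPM above 1 in 3 libraries, fits of the compared groups only, a replicate block, thinning to 4241863 counts, protein-coding genes, a GC trend, and each library left out in turn.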

Additional observations from a re-analysis of the deposited data

Results flagged for a closer look

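The T3 effect differed between TRB and EV cells for 8 of the 9 tested genes, by the interaction term of edgeR's quasi-likelihood fit (TRB minus EV, log2 scale). It was more negative in TRB cells for IGFBP3 (-1.64), IGFBP5 (-1.27), IGFBP4 (-0.86), IGFBP2 (-0.66), IRS2 (-0.40) and INSR (-0.30), and more positive for IRS1 (0.47) and IGF2R (0.31). Adjusted p values ran from 1e-32 for IGFBP3 to 0.00288 for IGFBP2. Of all genes tested, 23.9% passed the same test. With groups of 3, single libraries were not tested for standing apart.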

How the results depend on the processing

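The 45 member results (9 genes in 5 comparisons) were recomputed under each alternative that applied, 720 values in all: 695 kept their direction and side of the threshold, 13 lost the call and 12 changed sign. The 12 sign changes were all in values that missed the threshold. With a library left out, the log2 fold change ran from -0.01 to 0.03 for IGF1R with T3 in TRB cells. For T3 in EV cells it ran from -0.08 to 0.19 for IGFBP2 (-0.06 without EV vehicle replicate 1 and -0.0016 when replicate 3 was left out) and from -0.0048 to 0.05 for IGF2R. Between the lines it ran from -0.13 to 0.12 for IGFBP2 without T3, and from -0.06 to 0.05 for IRS1 with T3 (-0.04 without EV T3 replicate 2). Thinning turned IGFBP2 without T3 to 0.07, and no filter or the CPM filter turned IRS1 with T3 to -0.01 and -0.00022. The calls lost are those given above for IGFBP5, IGF2R and IRS2. Members called for T3 in TRB cells stayed at 8 under every alternative, thinning to equal depth included. For T3 in EV cells they were 1 to 2 with a library left out (1 without EV vehicle replicate 3), and without T3 4 to 5. Thinned, 5 were called without T3, 6 with T3 and 7 for the interaction.

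Over all genes, calls for T3 in EV cells numbered 660, against 407 with DESeq2, 396 when thinned, and 275 to 669 with a library left out; the cause was not tested. Same-numbered libraries did not deviate together (r from -0.132 to 0.102 over 18 pairs; 5 of 12 libraries correlated best with their own number), so the numbers were not treated as pairs. With the replicate block 8 members were called for T3 in TRB cells, 2 for T3 in EV cells, 6 and 7 between the lines and 8 for the interaction, as without it. Fitting only the compared groups was not run for the interaction, which needs all 4. The counts of 2 to 13 per library left IGFBP6 below the filter on low counts.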
